A study of Mus musculus with 12 samples.

Results

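The genes described here make and handle cholesterol and fatty acids. The list names 33 mouse genes that encode enzymes of the mevalonate, sterol and fatty acid routes, the sensors that set their transcription, and 2 sterol exporters. Members were found among the non-control probes of the arrays by gene symbol or synonym, and each gene was represented by its probe with the highest mean signal. A probe carrying the name of the member Acat2 was not found, and the probe named Acat3 also matches the Acat2 transcript, so its value is not used here. The remaining 32 members are set against the 33191 genes tested, themselves included. All 32 passed the filter on dim probes, which required 3 or more of the 12 arrays to be well above background. Of these, 31 were well above background on all 12 arrays and Elovl6 on 11, the exception being a sham array.

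Cells build cholesterol from acetyl-CoA through mevalonate, isoprenoid diphosphates, squalene and lanosterol. When sterol is scarce in the endoplasmic reticulum, SCAP escorts the SREBP precursors to the Golgi for cleavage, and the released factors switch on genes of sterol uptake and synthesis (mainly SREBP2, from Srebf2) and of fatty acid synthesis (mainly SREBP1, from Srebf1). INSIG proteins hold SCAP back when sterol is plentiful, and sterol excess is answered by LXR receptors, which switch on the exporters ABCA1 and ABCG1. In mice, loss of these exporters expands haematopoietic stem and progenitor cells.

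The arrays profiled haematopoietic stem cells of male mice, in 4 groups of 3 mice with 1 array per mouse. They came from bone marrow enriched for cells with Kit and were then flow sorted as LSK SLAM cells, which lack lineage markers, carry Sca-1 and Kit and are selected by SLAM family markers. One group received POL5551, which blocks the chemokine receptor CXCR4, as a continuous infusion of 100 mg/kg per day for 14 days. Another had G-CSF, a cytokine that mobilises stem cells from marrow, for 5 days (9 injections), and the next had it for 2 days (4 injections), each injection 100 ug/kg and 12 h apart. The sham-operated mice were the controls for all treatments, so G-CSF was compared with mice that had an operation and, per the labels, no stated vehicle injections. The sources used here give neither strain nor age. The arrays show only the sorted marrow fraction, and mice were not pooled.

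Levels are log2 of the processed red-channel intensity minus the array's 75th percentile, so 0 is the signal of a probe at that percentile and 1 unit is a doubling. The 75th percentile ran from 1892 to 6718 intensity units and was lowest on the array of sham mouse 1. That array stands apart from its group. Srebf2 was at -0.88 there and at 1.99 and 1.63 on the other sham arrays, and Scap at 0.24 there and at 2.44 and 2.46 on the others. Off-tissue probes (1540 probes of olfactory, vomeronasal, taste and keratin-associated genes) had their highest median on that array too, at -1.60 against -3.30 and -3.45 on the other sham arrays. Most member results that rest on it are given with and without it. All 10 stem cell markers were measured, and they did not all run alike. Kit was at 2.61 to 3.22 on the 12 arrays. Ly6a was at -1.84 on the array of sham mouse 1 and at 0.915 and 0.771 on the other sham arrays. Slamf1, well above background on 11 of 12 arrays, was at -4.12 there and at -0.96 and -1.41 on the others. Mecom was at -0.69, -0.44 and -0.16 in POL5551 mice and at 1.86, 0.44 and 0.44 in sham mice. Of the 10, 8 had positive differences in POL5551 minus sham. Of 9 measured markers of adipocytes and adipogenic stroma, the summed level (log2) was 3.31 to 4.73 in POL5551 mice, 3.00 to 4.90 after 5 days of G-CSF, 3.12 to 4.74 at 2 days and 2.45 to 3.66 in sham mice. Each array slide was 1 scan. All arrays of the 2-day group lay on 1 slide of their own, so that slide and the 2-day treatment cannot be told apart. The 5-day arrays shared no slide with sham or 2-day arrays, so slide and treatment cannot be told apart in those comparisons either.

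No member passed an adjusted p of 0.05 in limma in any of 5 comparisons. Over all genes, 2.28% passed in POL5551 minus sham, 0.0663% in 5-day G-CSF minus sham, 0.0331% in 2-day G-CSF minus sham, 0% in 5-day minus 2-day G-CSF and 0.0603% in POL5551 minus 5-day G-CSF. At an unadjusted p under 0.05 the members numbered 9, 0, 5, 3 and 4 in that order of comparisons, with 35%, 11.1%, 9.12%, 16.2% and 11.6% of all genes at that level. The members' share was therefore near or below that of all genes, except in 2-day G-CSF minus sham, where 5 of 32 is above 9.12%. A test of any difference between the 4 groups, limma's moderated F test, called 0 members and 1.35% of all genes, with 8 members and 34% of genes at an unadjusted p under 0.05. In a sorted fraction measured in bulk, fewer cells with a transcript and less of it per cell cannot be told apart.

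The order of the group means is given as a description, with no test. The POL5551 mean was the highest of the 4 groups for 22 of 32 members, against 27.0% of all genes. The 2-day G-CSF mean was the lowest of the 4 for 17 of 32 members, against 20.7% of all genes. Without sham mouse 1 these counts were 20 and 23 of 32, against 25.3% and 28.0% of all genes. Of the 10 members whose POL5551 mean was not the highest, Lss, Mvk, Mvd, Cyp51 and Insig1 were highest after 2 days of G-CSF, Sc5d and Scd2 after 5 days, and Fdft1, Hsd17b7 and Scd1 in sham mice.

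**Figure D1:**
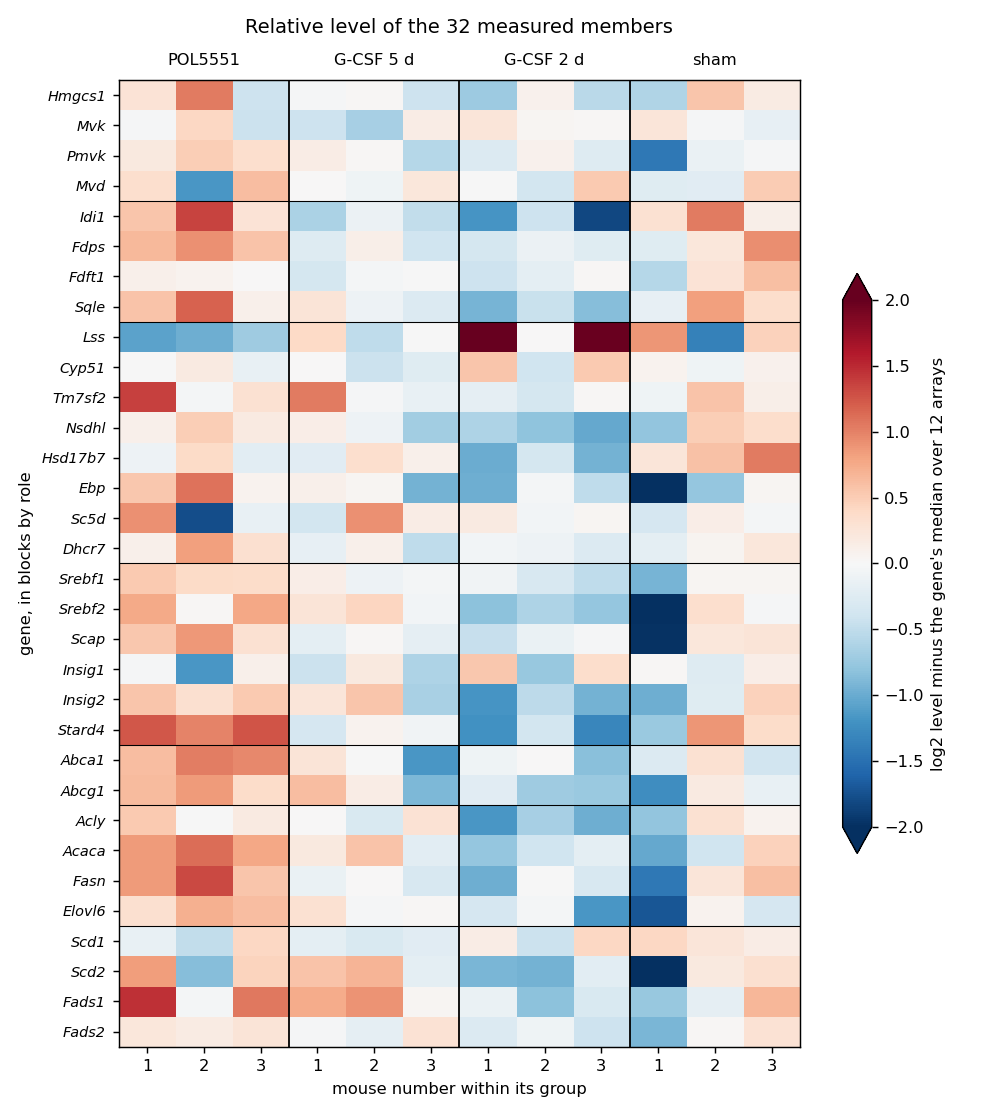
Level of each of the 32 measured members (rows, in blocks by role) on the 12 arrays (columns, by group and mouse number), as log2 difference from that gene's median over the 12 arrays, with colours limited to 2 units either way. Most rows are red under POL5551 and blue after 2 days of G-CSF, sham mouse 1 is blue in most rows, and Lss runs the other way.

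SREBPs act through sterol regulatory elements, usually beside sites for NF-Y and Sp1. The windows from 250 bases before to 50 after the RefSeq start (GRCm38.p6) were searched on both strands for a sterol regulatory element TCACNCCAC (reverse GTGGNGTGA), an NF-Y site CCAAT (reverse ATTGG) and an Sp1 site GGGCGG (reverse CCGCCC). No motif's letters hold those of another. The table holds a window for 24 of the 32 members, 32 windows in all with alternative starts. The element was found in 1 member, Hmgcs1, and in 1.24% of all 32851 windows. CCAAT was found in 19 of the 24 members and in 37.4% of all windows, and GGGCGG in 20 of the 24 members and in 35.7% of all windows. Members with several windows had several chances of a match. The 4 windows below are shown because Hmgcs1 holds the element, Idi1 and Hsd17b7 had the lowest p after 2 days of G-CSF, and Nsdhl was among the members called by the F test without sham mouse 1. Capitals mark the motifs, and each window is written along the strand of its gene. These are chr13:119690101-119690400 (plus strand) for Hmgcs1, chr13:8885356-8885655 (plus) for Idi1, chrX:72918271-72918570 (plus) for Nsdhl and chr1:169969156-169969455 (minus) for Hsd17b7.
Hmgcs1: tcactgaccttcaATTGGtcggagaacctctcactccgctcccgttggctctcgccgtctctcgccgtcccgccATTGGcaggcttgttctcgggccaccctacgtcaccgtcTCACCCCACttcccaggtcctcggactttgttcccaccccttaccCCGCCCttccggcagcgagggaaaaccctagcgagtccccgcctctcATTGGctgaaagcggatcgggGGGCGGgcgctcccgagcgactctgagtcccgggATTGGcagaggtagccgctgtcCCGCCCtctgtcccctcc
Idi1: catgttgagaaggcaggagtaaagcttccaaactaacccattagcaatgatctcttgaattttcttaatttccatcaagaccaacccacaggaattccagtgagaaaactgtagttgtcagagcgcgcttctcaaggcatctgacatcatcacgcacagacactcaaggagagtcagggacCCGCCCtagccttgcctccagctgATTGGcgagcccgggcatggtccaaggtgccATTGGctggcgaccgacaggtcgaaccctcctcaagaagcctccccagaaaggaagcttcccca
Nsdhl: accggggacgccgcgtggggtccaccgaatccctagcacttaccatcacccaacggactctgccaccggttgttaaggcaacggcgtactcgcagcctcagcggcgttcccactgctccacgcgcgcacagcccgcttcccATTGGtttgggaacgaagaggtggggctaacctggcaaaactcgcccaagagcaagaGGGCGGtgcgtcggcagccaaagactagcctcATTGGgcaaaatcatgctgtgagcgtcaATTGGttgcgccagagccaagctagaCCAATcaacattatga
Hsd17b7: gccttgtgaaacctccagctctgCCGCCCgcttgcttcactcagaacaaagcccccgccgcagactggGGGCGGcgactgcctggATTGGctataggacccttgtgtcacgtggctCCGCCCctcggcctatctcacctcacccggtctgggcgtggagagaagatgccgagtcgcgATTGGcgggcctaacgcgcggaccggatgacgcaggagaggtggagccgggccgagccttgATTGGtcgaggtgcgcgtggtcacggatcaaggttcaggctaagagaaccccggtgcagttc
Hmgcs1 holds 4 CCAAT and 3 GGGCGG matches beside its element, Nsdhl 4 and 1, Idi1 2 and 1, and Hsd17b7 3 of each. The Idi1, Nsdhl and Hsd17b7 windows do not hold these exact letters of the element, which says nothing of the factor.

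The mevalonate steps had differences from sham of -0.32 to 0.39 after 5 days and -0.43 to 0.38 after 2 days of G-CSF. Hmgcs1, the synthase that makes HMG-CoA, was at 0.84, 1.60 and 0.15 in POL5551 mice, 0.54, 0.59 and 0.15 after 5 days of G-CSF, -0.16, 0.66 and 0.02 at 2 days and -0.03, 1.12 and 0.72 in sham mice. All 4 groups overlapped. Mevalonate kinase (Mvk) averaged 1.44 ± 0.42, 1.15 ± 0.42, 1.56 ± 0.12 and 1.47 ± 0.20 (SD, n = 3 each) in the same order of groups. Its 95% interval for POL5551 minus sham was -0.74 to 0.69, so changes of 1 log2 unit lie outside it. Phosphomevalonate kinase (Pmvk) was at 2.74, 3.05 and 2.88 in POL5551 mice and at 1.12, 2.42 and 2.53 in sham mice. These groups did not overlap, with a difference of 0.87 (SE 0.393, adjusted p 0.141), and without the low array of sham mouse 1 the difference was 0.42. Mevalonate diphosphate decarboxylase (Mvd) had group means between -1.22 and -1.10, and POL5551 mouse 2 was lowest of all arrays at -2.32.

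By their brightest probes, the prenyl and squalene steps all had their lowest group mean after 2 days of G-CSF. All 4 genes of this block had negative differences from sham at both G-CSF times, with medians of -0.43 after 5 days and -0.81 after 2 days, or -0.69 and -1.07 without sham mouse 1. All 4 had positive differences in 5-day minus 2-day G-CSF and in POL5551 minus 5-day G-CSF, with medians of 0.38 and 0.77. Comparisons that have a group in common are not independent of each other, and none of these differences was called. The second probes of Sqle and Fdft1, given below, had the other sign in some of these comparisons.

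Idi1, the isomerase that interconverts the isoprenoid building blocks, was at -0.38, 0.43 and -0.66 in POL5551 mice, -1.56, -1.05 and -1.42 after 5 days of G-CSF, -2.11, -1.34 and -2.74 at 2 days and -0.63, 0.11 and -0.81 in sham mice. Every G-CSF array lay below every sham array and below every POL5551 array. The difference from sham was -1.62 after 2 days (SE 0.436, adjusted p 0.370, limma) and -0.90 after 5 days (SE 0.436, adjusted p 0.467). POL5551 minus 5-day G-CSF was 1.14 (SE 0.436, adjusted p 0.408), and POL5551 minus sham was 0.24. The Idi1 probe lies in the transcript at chr13:8891524-8891583 of mm9, and the array holds no second probe for the gene.

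Squalene epoxidase (Sqle), a rate-limiting oxygenation step after mevalonate, was at 1.48, 2.09 and 1.02 in POL5551 mice, 1.18, 0.82 and 0.65 after 5 days of G-CSF, -0.02, 0.48 and 0.07 at 2 days and 0.75, 1.74 and 1.27 in sham mice. The 2-day mice lay below all other arrays. Its 2-day difference from sham was -1.08 (SE 0.371, adjusted p 0.455), with a 95% interval of -1.89 to -0.26. A second Sqle probe, also well above background on all 12 arrays, gave -0.33 there. It gave 0.12 in 5-day G-CSF minus sham and -0.96 in POL5551 minus 5-day G-CSF, opposite in sign to the brightest probe. Fdps, which makes farnesyl diphosphate for both sterols and protein prenylation, was at 0.40, 0.67 and 0.33 in POL5551 mice, -0.50, -0.12 and -0.65 after 5 days of G-CSF, -0.60, -0.36 and -0.48 at 2 days and -0.49, -0.02 and 0.69 in sham mice. The sham mice spanned almost the range of all the others, and POL5551 minus 5-day G-CSF was 0.89 (SE 0.336, adjusted p 0.408). Squalene synthase (Fdft1) had group means of 1.59, 1.39, 1.33 and 1.62, and no comparison of it passed an unadjusted p of 0.05. Its second probe, also well above background on all 12 arrays, gave 0.26 in 2-day G-CSF minus sham and -0.47 in 5-day minus 2-day G-CSF. The brightest probe gave -0.30 and 0.06 there.

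**Figure D2:**
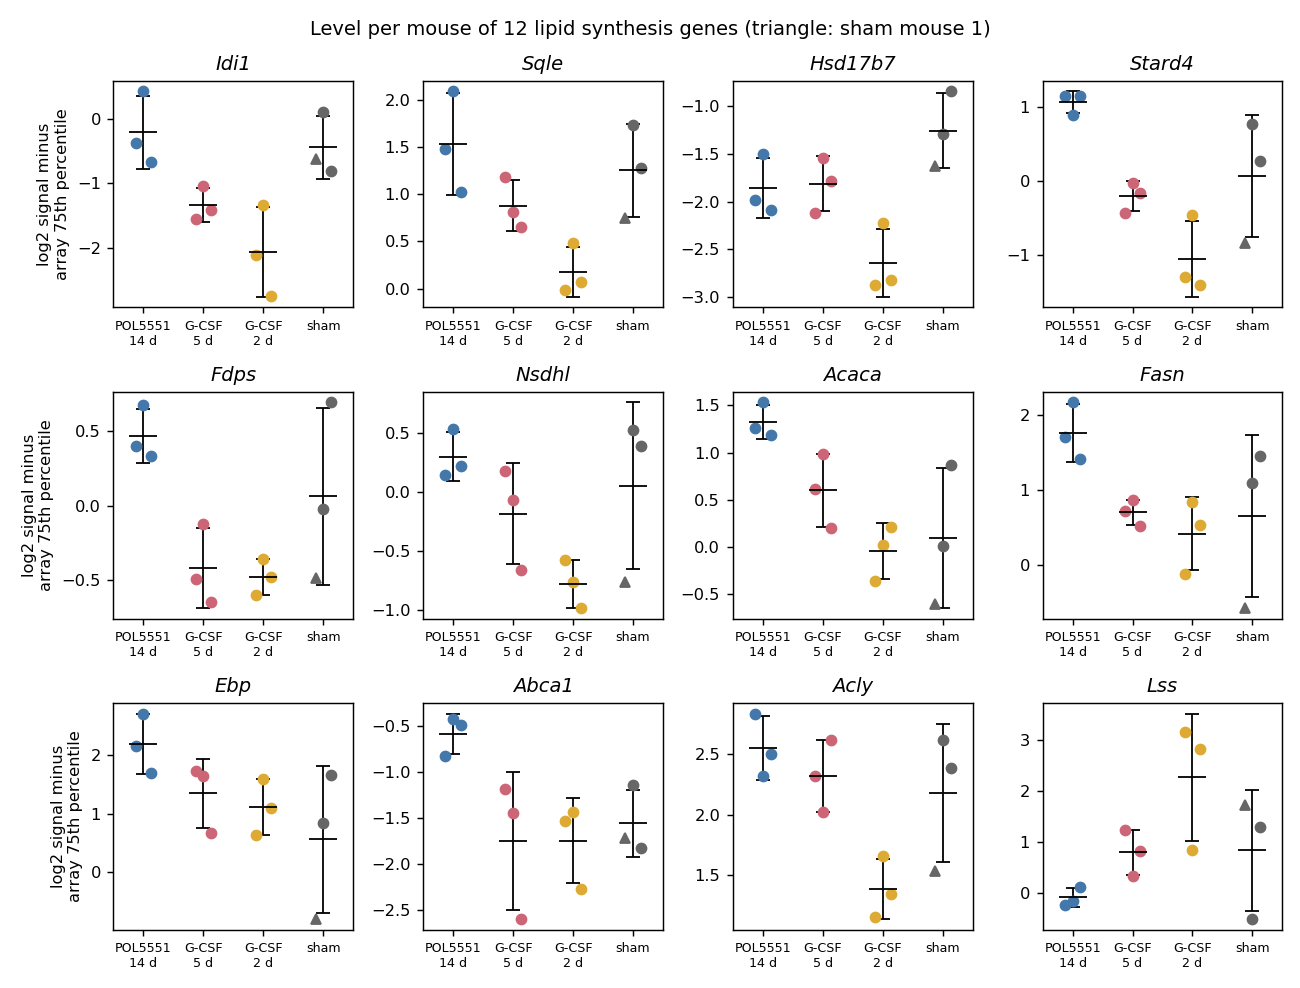
Level of 12 members in each mouse (points), with the group mean and SD (bars, n = 3 mice), on a log2 scale relative to the array's 75th percentile. The G-CSF mice lie below the sham and POL5551 mice for Idi1, the 2-day mice lie lowest for Sqle and Hsd17b7, and sham mouse 1 (triangle) is the lowest sham array in 9 of the 12 panels.

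The sterol ring steps did not move as a block. Of 8 genes, 4 had positive differences in POL5551 minus sham, 3 in 5-day and 4 in 2-day G-CSF minus sham, and without sham mouse 1 the 2-day count was 2. Hsd17b7, a keto reductase that acts in the removal of the C4 methyl groups, was at -1.98, -1.50 and -2.09 in POL5551 mice, -2.11, -1.54 and -1.78 after 5 days of G-CSF, -2.87, -2.23 and -2.82 at 2 days and -1.63, -1.29 and -0.85 in sham mice. The 2-day mice were below the sham mice and below the 5-day mice without overlap. The 2-day difference from sham was -1.38 (SE 0.336, adjusted p 0.329), that of 5 days -0.55 (SE 0.336, adjusted p 0.544), and 5-day minus 2-day G-CSF was 0.83 (SE 0.336, adjusted p 0.280). Its brightest probe lies at chr1:171882591-171882650 of mm9. A second probe of the gene gave -0.54 in 2-day G-CSF minus sham, and another, well above background on only 3 of 12 arrays, gave 2.05.

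Nsdhl, which works in the same demethylation complex, was at 0.14, 0.53 and 0.22 in POL5551 mice, 0.18, -0.07 and -0.66 after 5 days of G-CSF, -0.58, -0.76 and -0.98 at 2 days and -0.76, 0.52 and 0.39 in sham mice. Sham mouse 1 lay among the 2-day mice and its group mates with the POL5551 mice. The 2-day difference from sham was -0.83 with sham mouse 1 (adjusted p 0.556) and -1.23 without it (adjusted p 0.0819).

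Lss, the cyclase that makes lanosterol, ran against the block. It was at -0.25, -0.16 and 0.12 in POL5551 mice, 1.22, 0.32 and 0.82 after 5 days of G-CSF, 3.15, 0.84 and 2.81 at 2 days and 1.71, -0.53 and 1.29 in sham mice. The POL5551 mice lay below all 5-day mice, and 2 of the 2-day mice were the highest of all 12 arrays. The difference in 5-day minus 2-day G-CSF was -1.48 (SE 0.663, adjusted p 0.305) and that of 2-day G-CSF minus sham 1.44 (SE 0.663, adjusted p 0.551). The probes of the gene disagree in size and sign. In 2-day G-CSF minus sham the second probe gave 0.58 and another, well above background on 5 of 12 arrays, gave -0.78.

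Ebp, the sterol isomerase of the late pathway, was at 2.15, 2.70 and 1.69 in POL5551 mice, 1.72, 1.64 and 0.66 after 5 days of G-CSF, 0.63, 1.58 and 1.10 at 2 days and -0.80, 0.84 and 1.65 in sham mice. The POL5551 mice lay above all sham mice, by a narrow gap. The difference was 1.62 (SE 0.583, adjusted p 0.0996), and it was 0.94 without sham mouse 1. The second Ebp probe, also well above background on all 12 arrays, gave 0.13. Cyp51, the lanosterol demethylase, had group means between 2.50 and 2.95 by its brightest probe. Its second probe, also well above background on all 12 arrays, gave -0.92 in 2-day G-CSF minus sham, where the brightest gave 0.20. In 5-day minus 2-day G-CSF these probes gave 1.02 and -0.44, and in POL5551 minus sham 0.56 and -0.02. Dhcr7, which performs the last reduction to cholesterol, had group means between -1.05 and -0.45. Tm7sf2, a sterol reductase, had means between -1.33 and -0.61, and Sc5d, the lathosterol desaturase, between -1.50 and -0.93. A second Sc5d probe gave -0.72 in 2-day G-CSF minus sham, where the brightest gave 0.13. By their brightest probes, none of these 4 genes passed an unadjusted p of 0.05 in any comparison.

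Among the sensors, the means of Srebf1, Srebf2 and Scap were highest in POL5551 mice. Srebf2 was at 2.42, 1.68 and 2.43 in POL5551 mice, 1.92, 2.08 and 1.60 after 5 days of G-CSF, 0.84, 1.05 and 0.88 at 2 days and -0.88, 1.99 and 1.63 in sham mice. With sham mouse 1 the POL5551 difference from sham was 1.27 (SE 0.616, adjusted p 0.159), and without it 0.37. The 2-day difference was 0.01 with that array and -0.89 without it (adjusted p 0.135). A second Srebf2 probe gave 0.23 and 0.43 in POL5551 and in 2-day G-CSF minus sham. Srebf1 was at 1.36, 1.21 and 1.20 in POL5551 mice, 0.97, 0.73 and 0.80 after 5 days of G-CSF, 0.77, 0.52 and 0.33 at 2 days and -0.09, 0.88 and 0.87 in sham mice, so the POL5551 arrays lay above all 9 others. Scap averaged 2.78 ± 0.28, 2.10 ± 0.13, 2.00 ± 0.23 and 1.72 ± 1.28 (SD, n = 3 each), and the wide SD of the sham mice comes from mouse 1.

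The INSIG genes differed from each other. Insig1, an SREBP target as well as a regulator, had group means of 0.57, 0.65, 0.98 and 0.90. Insig2 was at 0.46, 0.22 and 0.44 in POL5551 mice, 0.14, 0.47 and -0.74 after 5 days of G-CSF, -1.27, -0.62 and -1.04 at 2 days and -1.08, -0.33 and 0.38 in sham mice. Mouse 3 of the 5-day group lay with the 2-day mice, and 5-day minus 2-day G-CSF was 0.93 (SE 0.425, adjusted p 0.310).

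Stard4, a soluble carrier that moves sterol between membranes and is itself an SREBP2 target, had the lowest F test p of the members (adjusted p 0.0607). It was called by that test without sham mouse 2 (adjusted p 0.0414, with 6.6% of all genes called) and when only probes well above background on all 12 arrays were tested, as was Idi1 (14% of all genes). Stard4 was at 1.15, 0.89 and 1.16 in POL5551 mice, -0.43, -0.03 and -0.16 after 5 days of G-CSF, -1.30, -0.46 and -1.40 at 2 days and -0.84, 0.78 and 0.28 in sham mice. The POL5551, 5-day and 2-day mice lay in that order from high to low without overlap, while the sham mice spread over most of that range. POL5551 minus 5-day G-CSF was 1.27 (SE 0.422, adjusted p 0.381), 2-day G-CSF minus sham -1.13 (SE 0.422, adjusted p 0.478) and POL5551 minus sham 0.99 (SE 0.422, adjusted p 0.128). Without sham mouse 1 the last of these was 0.54 (adjusted p 0.388). A second probe, well above background on 8 of 12 arrays, gave 0.89, -1.02 and 0.57 in the same 3 comparisons on all arrays.

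The exporters had similar differences from sham in POL5551 mice when all arrays were used. Abca1, which loads cholesterol onto lipid-poor apolipoprotein, was at -0.83, -0.42 and -0.48 in POL5551 mice, -1.19, -1.45 and -2.61 after 5 days of G-CSF, -1.53, -1.43 and -2.28 at 2 days and -1.71, -1.14 and -1.83 in sham mice. The POL5551 mice lay above all other arrays. The difference was 0.98 from sham (SE 0.415, adjusted p 0.128) and 1.17 from 5-day G-CSF (SE 0.415, adjusted p 0.399). Its second probe gave 0.65 and 0.68. Abcg1, which exports sterol to mature lipoprotein particles, was at 2.20, 2.43 and 1.94 in POL5551 mice, 2.19, 1.73 and 0.67 after 5 days of G-CSF, 1.34, 0.86 and 0.83 at 2 days and 0.33, 1.76 and 1.42 in sham mice. The lowest POL5551 mouse lay above the highest sham mouse, and the difference was 1.02 (SE 0.460, adjusted p 0.140), or 0.60 without sham mouse 1. Within the 2 slides that held both groups it was 1.87 and 0.84, where Abca1 had 0.89 and 1.06. With the off-tissue level added to the model as a covariate, Abcg1 had the opposite sign and Abca1 stayed positive.

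All 4 fatty acid synthesis genes had positive differences from sham in POL5551 mice, with a median of 1.16, and after 5 days of G-CSF, with a median of 0.33. Without sham mouse 1 all 4 stayed positive in POL5551 mice, with a median of 0.59, while after 5 days Acaca and Elovl6 were positive, at 0.16 and 0.24, and Acly and Fasn negative, at -0.18 and -0.57. Acaca, the acetyl-CoA carboxylase that commits carbon to fatty acids, was at 1.26, 1.53 and 1.18 in POL5551 mice, 0.61, 0.98 and 0.20 after 5 days of G-CSF, -0.37, 0.02 and 0.21 at 2 days and -0.61, 0.01 and 0.87 in sham mice. All POL5551 mice lay above all other arrays. The difference from sham was 1.24 (SE 0.394, 95% interval 0.37 to 2.10, adjusted p 0.0817), the lowest p of any member in that comparison. It was 0.89 without sham mouse 1 (adjusted p 0.240), and 1.63 without sham mouse 3 (adjusted p 0.031), where 14.1% of all genes were called.

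The Acaca value depends on the probe. Of 7 probes on the array 5 were well above background on all 12 arrays, and in POL5551 minus sham they gave 1.24, 0.94 and 0.80 at the 3′ side of the gene and -0.94 and -2.03 nearer its 5′ side. The brightest probe (mm9, chr11:84211638-84211697, plus strand) and one of opposite sign (chr11:84009021-84009080, plus strand) are shown because the call of direction turns on them. Both are listed for the same RefSeq transcript. Each holds at least 1 reading frame without a stop, as do all 7 Acaca probes, so this does not tell the probes apart.
Acaca brightest probe: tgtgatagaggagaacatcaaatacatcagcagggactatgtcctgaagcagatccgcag
Acaca probe of opposite sign: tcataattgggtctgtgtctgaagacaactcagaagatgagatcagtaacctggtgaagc
Over all members, 22 further probes were well above background on all 12 arrays, and 14 of the 22 had the sign of the brightest probe in POL5551 minus sham, 12 in 5-day and 16 in 2-day G-CSF minus sham.

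**Figure D3:**
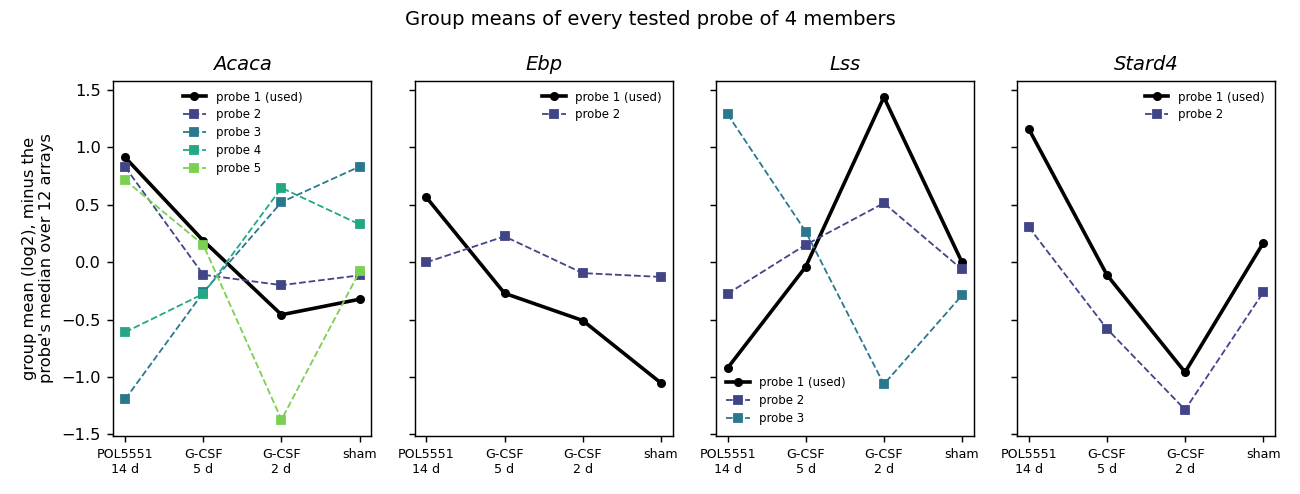
Group means (log2) of every tested probe of 4 members, each probe centred on its own median over the 12 arrays, for POL5551, 5-day G-CSF, 2-day G-CSF and sham mice from left to right. Both Stard4 probes follow the same course, the second Ebp probe is flatter than the brightest, and some Acaca and Lss probes run opposite to the brightest.

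ATP citrate lyase (Acly), which supplies cytosolic acetyl-CoA to both routes, was at 2.84, 2.32 and 2.50 in POL5551 mice, 2.32, 2.02 and 2.62 after 5 days of G-CSF, 1.16, 1.66 and 1.35 at 2 days and 1.53, 2.62 and 2.38 in sham mice. The 5-day mice lay above the 2-day mice without overlap, with a difference of 0.93 (SE 0.350, adjusted p 0.266), the lowest p of any member in that comparison. The second Acly probe, also well above background on all 12 arrays, gave a difference of 0.019. Fatty acid synthase (Fasn) was at 1.71, 2.17 and 1.42 in POL5551 mice, 0.73, 0.87 and 0.53 after 5 days of G-CSF, -0.12, 0.84 and 0.54 at 2 days and -0.57, 1.10 and 1.45 in sham mice. POL5551 minus sham was 1.11 with sham mouse 1 (SE 0.495, adjusted p 0.139) and 0.49 without it. Elovl6, which lengthens palmitate, was at -1.66, -1.28 and -1.37 in POL5551 mice, -1.67, -2.01 and -1.96 after 5 days of G-CSF, -2.32, -2.02 and -3.15 at 2 days and -3.69, -1.92 and -2.31 in sham mice. The lowest value is that of sham mouse 1. Its POL5551 difference from sham was 1.20 (SE 0.457, adjusted p 0.108) and that of 5-day G-CSF 0.76 (SE 0.457, adjusted p 0.542), or 0.68 and 0.24 without that array.

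The desaturases gave no common direction. Scd1, a stearoyl-CoA desaturase, was at -1.09, -1.45 and -0.54 in POL5551 mice, -1.15, -1.26 and -1.17 after 5 days of G-CSF, -0.81, -1.38 and -0.54 at 2 days and -0.55, -0.70 and -0.81 in sham mice. Its 5-day mice lay below the sham mice without overlap, with a difference of -0.51 (SE 0.327, adjusted p 0.560). These values come from the brightest probe, which the array's design places on the plus strand. The second Scd1 probe, listed for the RefSeq transcript, lies on the minus strand. By that design the brightest probe is antisense to the RefSeq transcript, and whether its values measure Scd1 mRNA was not tested. The second probe was dimmer, with a mean level of -2.58 against -0.95, and gave a 5-day difference of -1.07. Scd2, another stearoyl-CoA desaturase, was at 2.79, 1.09 and 2.39 in POL5551 mice, 2.52, 2.63 and 1.75 after 5 days of G-CSF, 1.04, 1.01 and 1.75 at 2 days and -1.86, 2.15 and 2.28 in sham mice. The value of sham mouse 1 lies far below all the others, and the 5-day difference from sham was 1.44 with it (SE 0.925, adjusted p 0.559) and 0.09 without it. Fads1, the delta-5 desaturase of polyunsaturated fatty acids, was at 1.47, -0.03 and 1.07 in POL5551 mice, 0.76, 0.92 and 0.05 after 5 days of G-CSF, -0.12, -0.81 and -0.29 at 2 days and -0.75, -0.17 and 0.67 in sham mice. Fads2, the delta-6 desaturase, had group means between 2.37 and 2.84.

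**Figure D4:**
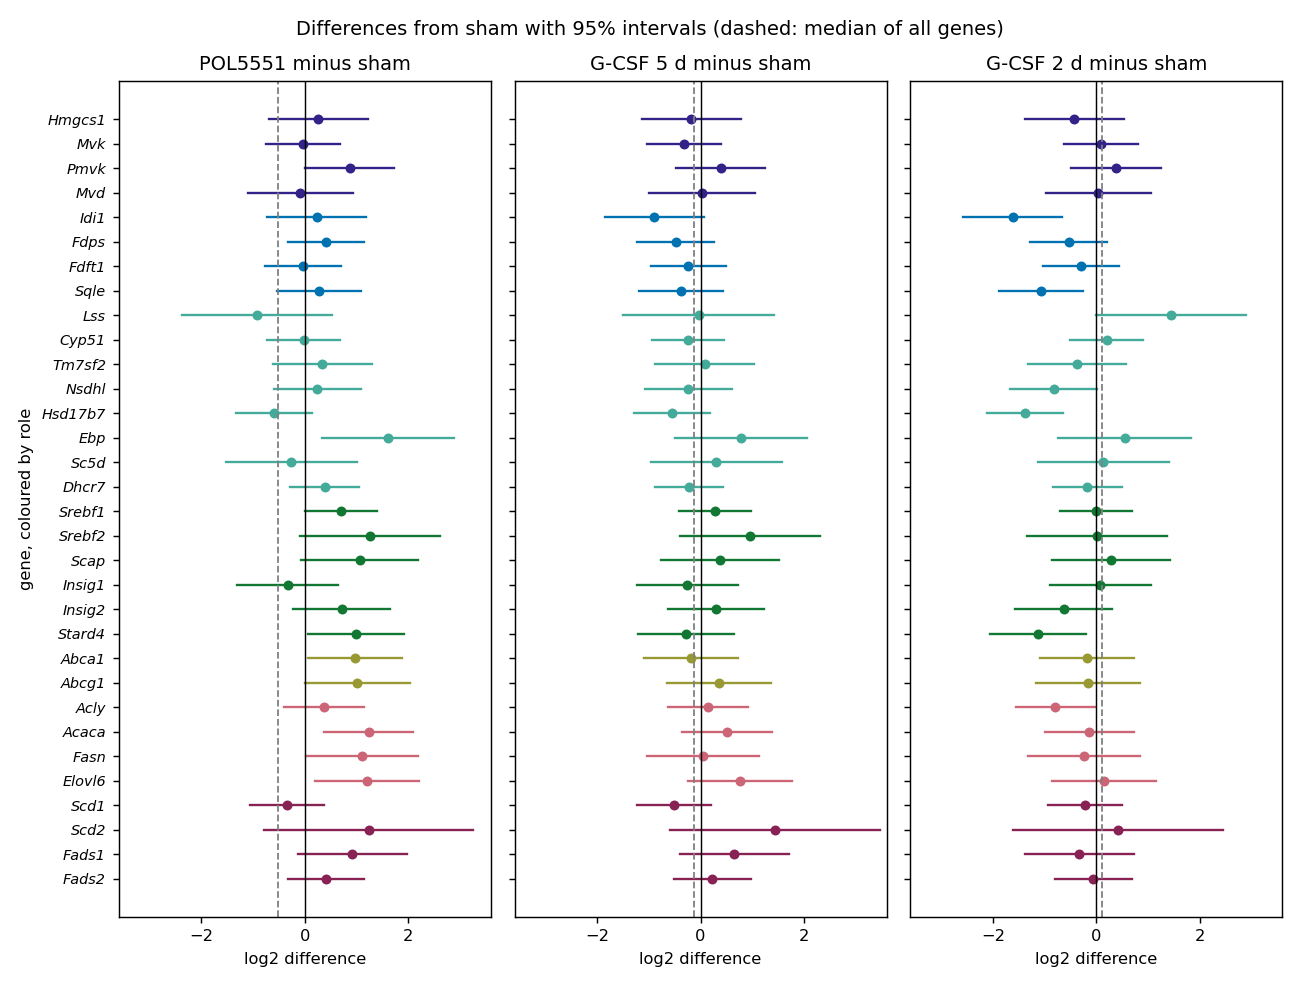
Difference of each treatment from sham for the 32 members (points), with limma's 95% interval (lines), on a log2 scale, with the median of all genes as a dashed line and members coloured by role. In POL5551 minus sham 23 of 32 points lie right of 0 while the median of all genes lies at -0.52, and in 2-day G-CSF minus sham 12 of 32 lie right of 0.

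As a group, the members stood on the other side of 0 from all genes in POL5551 minus sham. Their median difference was 0.40, with 23 of 32 positive, and that of all genes was -0.52, with 35.9% positive. In 5-day G-CSF minus sham the medians were 0.04 for members and -0.13 for all genes, and in 2-day G-CSF minus sham -0.17 and 0.10. In 5-day minus 2-day G-CSF they were 0.29 and -0.27, with 24 of 32 members positive, and in POL5551 minus 5-day G-CSF 0.42 and -0.28, with 26 of 32 positive. The 3 comparisons with sham share the sham arrays, and the last 2 share the 5-day arrays. Scaling each array to its median in place of its 75th percentile put the median of all genes in POL5551 minus sham at -0.12 and that of members at 0.80, with 30 of 32 positive and still 0 called. Under that scaling 15 members lay wholly above sham in POL5551 mice (19.2% of all genes) and 13 wholly above the 2-day mice after 5 days of G-CSF (17.6% of all genes). Without sham mouse 1 the medians were 0.14 for members and -0.26 for all genes in POL5551 minus sham, -0.20 and -0.04 in 5-day G-CSF minus sham, and -0.50 and 0.21 in 2-day G-CSF minus sham. Positive members then numbered 22, 8 and 4 of 32, against 23, 17 and 12 with that mouse.

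In at least 1 of the 5 comparisons 21 of 32 members had groups that did not overlap. The share of all genes that did so was not taken, so that count says nothing particular of the members. In single comparisons the share of members wholly apart was above that of all genes in 4 cases. These were the higher side of POL5551 minus sham, of 5-day minus 2-day G-CSF and of POL5551 minus 5-day G-CSF, and the lower side of 2-day G-CSF minus sham. In POL5551 minus sham 9 members lay wholly above sham (Pmvk, Ebp, Srebf1, Scap, Stard4, Abca1, Abcg1, Acaca and Elovl6), with 10.6% of all genes, and 0 lay wholly below, with 25.9% of all genes. After 5 days of G-CSF 2 members lay wholly below sham (Idi1 and Scd1, with 8.16% of all genes) and 0 above (4.41%). After 2 days 3 lay wholly below (Idi1, Sqle and Hsd17b7, with 5.35% of all genes) and 0 above (6.63%). Idi1 was the member below sham at both times. The 5-day mice lay wholly above the 2-day mice for 8 members (Sqle, Hsd17b7, Srebf2, Stard4, Acly, Elovl6, Scd2 and Fads1, with 11.8% of all genes) and wholly below for 0 (23.4%). POL5551 mice lay wholly above 5-day mice for 11 members, with 10.3% of all genes, and below for Lss, with 15.3%.

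Leaving out sham mouse 1 changed these counts most on the G-CSF side. Members wholly below the other sham mice then numbered 11 after 5 days (13.4% of all genes) and 19 after 2 days (20.4% of all genes), while 0 lay wholly above after 5 days (9.72% of all genes) and 1, Mvk, after 2 days (31% of all genes). In POL5551 minus sham the same 9 members lay above (12.1%) and Fdft1 and Hsd17b7 below (27.3%). With 2 sham mice left, a gene needs to clear fewer arrays to separate. The F test without that mouse called 10 of 32 members (Idi1, Fdps, Sqle, Nsdhl, Hsd17b7, Srebf2, Stard4, Acly, Acaca and Fasn), with adjusted p from 0.0173 for Stard4 to 0.0482 for Acaca, and 23.1% of all genes. No member was called in a pairwise comparison without it, and the lowest adjusted p in 2-day G-CSF minus sham were 0.0642 for Hsd17b7, with a difference of -1.57, and 0.0660 for Stard4, with -1.58.

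The members' level ran opposite to the off-tissue signal over the arrays. The median off-tissue level was -5.17, -4.50 and -4.10 in POL5551 mice, -3.97, -3.87 and -3.24 after 5 days of G-CSF, -2.40, -2.72 and -2.59 at 2 days and -1.60, -3.30 and -3.45 in sham mice. The median level of the members was 1.20, 0.99 and 1.03, then 0.67, 0.76 and 0.26, then -0.12, 0.33 and 0.14, and in sham mice -0.59, 0.73 and 0.87. POL5551 arrays had the lowest off-tissue signal and the highest member levels, and sham mouse 1 the reverse of both. With that off-tissue level added to the model as a covariate, the members' median minus that of all genes was -0.25 in POL5551 minus sham, where it was 0.92 without the covariate. It was -0.27 in 5-day G-CSF minus sham, against 0.17 without the covariate, and -0.10 in 2-day G-CSF minus sham, against -0.27 without it. With the covariate 9 of 32 members were positive in POL5551 minus sham and 4 of 32 in 5-day G-CSF minus sham, against 23 and 17 without it. In POL5551 minus sham 22 members had the other sign in that model, among them Scd2 (-2.06), Srebf2 (-0.77), Scap (-0.59), Fasn (-0.42) and Ebp (-0.32), while Acaca (0.27) and Abca1 (0.62) stayed positive. Hsd17b7 and Idi1 kept 2-day differences from sham of -1.33 and -1.59 in that model (adjusted p 0.178 and 0.224). Off-tissue signal differs between the groups, and its part in the members' levels was not tested.

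**Figure D5:**
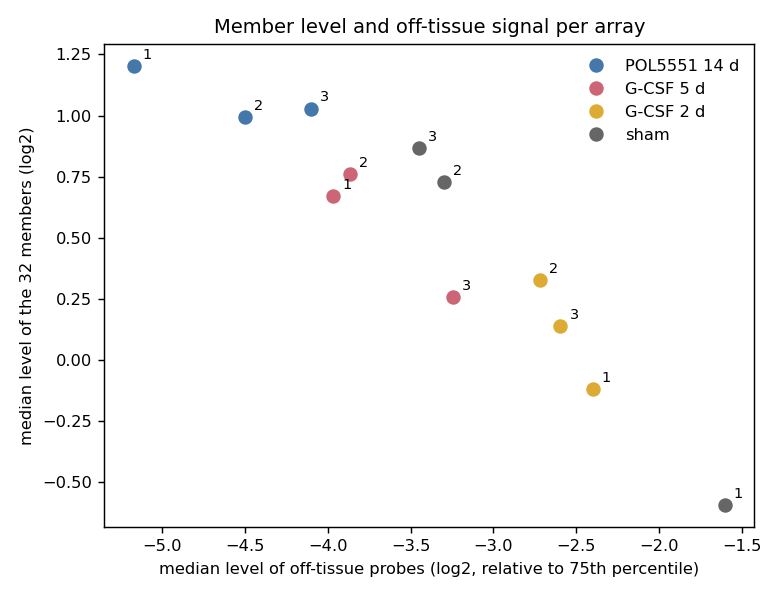
Median level of the 32 members on each array (vertical, log2) against the median level of 1540 off-tissue probes on the same array (horizontal, log2), coloured by group and numbered by mouse. Arrays with more off-tissue signal have lower member medians, from POL5551 at the upper left to sham mouse 1 at the lower right.

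Slides that held POL5551 and sham mice together allow the comparison within a slide. On the slide with POL5551 mouse 1 and sham mouse 1 the members' median difference was 1.20, with 26 of 32 positive and a median of -1.15 for all genes. On the slide with POL5551 mouse 2 and sham mice 2 and 3 it was 0.27, with 20 of 32 positive and -0.18 for all genes. Of the 32 members 18 were positive on both slides, 4 negative on both and 10 of opposite sign. Acaca had differences of 1.87 on the first slide and 1.09 on the second, and Abca1 of 0.89 and 1.06, whereas Scd2 had 4.65 and -1.12 and Srebf2 3.30 and -0.13. On the slide with POL5551 mouse 3 and 5-day mouse 2 the members' median difference was 0.28, with 25 of 32 positive and -0.03 for all genes. With slide as a fixed block 0 members were called in POL5551 minus sham, and the lowest adjusted p was 0.0727, for Ebp. These are differences between 2 or 3 arrays each.

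Markers of stroma also differed between mice. Adiponectin (Adipoq), made by adipocytes and adipogenic stromal cells, was at 3.12, 1.32 and 2.92 in POL5551 mice, 3.15, 0.67 and 2.80 after 5 days of G-CSF, -0.95, -0.70 and 1.82 at 2 days and -0.27, -1.44 and -2.04 in sham mice. Of the 9 measured markers of that list 5 had positive differences in POL5551 minus sham. The others, Lpl, Plin1, Cfd and Kitl, had lower means in POL5551 mice. Lpl was at 0.13, -0.21 and 0.30 in POL5551 mice and at 2.47, 0.40 and 1.42 in sham mice. Pdgfrb, a receptor of perivascular stroma, was at -0.16, -0.48 and -0.54 in POL5551 mice and -6.01, -3.58 and -2.46 in sham mice. It rose by 3.62 (adjusted p 0.0335, limma), the only marker of any list called in a comparison. The value of -6.01 is that of sham mouse 1, and Pdgfrb was well above background on only 2 of the 3 sham arrays. Its difference was not taken without that mouse. POL5551 mouse 2, the lowest of its group for Adipoq, was also the lowest of its group for Scd2, Fads1, Sc5d and Mvd and the highest for Idi1, Sqle and Acaca, genes chosen here after their values were seen. Macrophage markers (7 measured) summed to 0.59 to 1.23 in POL5551 mice, 0.33 to 1.11 and 1.18 to 1.33 after 5 and 2 days of G-CSF and 0.82 to 2.03 in sham mice. Of these lists Cidec and Mrc1 were not among the genes tested. Neutrophil and granule markers (9 measured) had medians of 0.87 in POL5551 minus sham, 0.70 in 5-day G-CSF minus sham and 0.67 in 5-day minus 2-day G-CSF. Of the 9, 7, 6 and 6 were positive in that order. Erythroid, B lymphoid and endothelial lists (6 measured genes each) had medians of -0.35, 0.01 and -0.11 in POL5551 minus sham. These medians include sham mouse 1. The part of admixed RNA from stroma, macrophages, neutrophils or other cells in the members' values was not tested.

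Neighbouring steps of the same routes, from lists that are not members, were not called either. Of 8 other isoprenoid genes, which make dolichol, ubiquinone and prenyl anchors, 7 had positive differences in POL5551 minus sham, with a median of 0.89. The lowest p was that of Coq2, which prenylates the ubiquinone ring, with a difference of 1.13 (SE 0.366, adjusted p 0.0845). Of 6 genes of SREBP processing and INSIG turnover, 6 were positive in POL5551 minus sham and 6 in 5-day minus 2-day G-CSF, with medians of 0.58 and 0.66, and 1 was positive in 2-day G-CSF minus sham, with a median of -0.52. Of 17 other fatty acid genes, 15 were positive in POL5551 minus sham, 11 after 5 days and 5 after 2 days of G-CSF, with medians of 0.56, 0.29 and -0.43. Of 10 measured LXR and sterol handling genes, 8 were positive in POL5551 minus sham, and the lowest p was that of Abcg4, with a difference of -1.55 (SE 0.391, adjusted p 0.0592). The counts and medians of these lists include sham mouse 1 and were not taken without it. On that array Acsl5 was at -1.07, against 2.45 and 2.67 on the other sham arrays, and Usp20 at -0.24, against 2.01 and 1.81. Some genes ran the other way there, such as Elovl5 at 1.94, against 1.43 and 1.51.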

How the data were processed

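RNA of 12 sorted stem cell samples was hybridised in single colour (Cy5) to Agilent arrays, 1 mouse per array. The deposited scanner files hold linear intensity values made with Agilent Feature Extraction 11.5.1.1, per the submitters' processing notes, with background subtracted and no normalization between arrays, per the file headers. The intensity was taken as log2 minus each array's 75th percentile over non-control probes. Flagged outlier spots were left out and repeated spots averaged. Each gene was represented by its brightest probe among those well above background on at least 3 arrays. Probe coordinates come from the array's design (mm9), and promoters are from RefSeq (GRCm38.p6).

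Groups came from the labels. limma 3.58.1 in R 4.3.3 was fitted to all 12 arrays as a model of group means (8 residual and 3.23 prior degrees of freedom), two-sided, with Benjamini-Hochberg adjustment over 33191 genes and a threshold of 0.05. The procedure was tested on simulated data. Full statistics are given for the 4 members of lowest p in each comparison and in the F test, since none was called. One gene of the neighbouring lists is not reported by name here. The members and lists were chosen with earlier results of these data known, so no p is adjusted over the list alone and no set test was run. The number of arrays limits the precision.

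Mouse numbers recur in every group, with no label saying what they share. Same-numbered mice deviated together from their group means in the 2-day G-CSF and sham groups (correlations over genes of 0.25, 0.22 and 0.15) and not in other pairs of groups, where they ran from -0.31 to 0.25. The deposited table of authors' processed intensity values was used as an alternative. Its columns match scanner files of the same group, with other mouse numbers for the POL5551 mice and for 5-day mice 2 and 3.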

Additional observations from a re-analysis of the deposited data

Results flagged for a closer look

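Fads1, which makes the delta-5 double bond of polyunsaturated fatty acids, is listed because its 3 mice of the 5-day G-CSF group all lay above the sham mean of -0.08 and its 3 mice of the 2-day group all lay below it. Relative to that mean the 5-day mice were at 0.84, 1.00 and 0.13 and the 2-day mice at -0.04, -0.73 and -0.21. The difference in 5-day minus 2-day G-CSF was 0.98 (SE 0.479, adjusted p 0.329 in limma). That opposite course was not called, and the sham mice themselves ran from -0.75 to 0.67. The lowest of these is sham mouse 1, and the other sham mice were at -0.17 and 0.67. Without sham mouse 1, 5-day mouse 3, at 0.05, lies below the sham mean, so the listed course depends on that array. The other Fads1 probes, also well above background on all 12 arrays, gave 0.90 and 0.012 in 5-day minus 2-day G-CSF.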

How the results depend on the processing

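The other settings were quantile normalization, normexp with quantile normalization, median scaling, the authors' value table, no filter on dim probes, probes well above background on all 12 arrays, the mean of a gene's probes, slide blocks, a replicate block, the off-tissue median as a covariate and each array left out. Settings for groups that do not overlap were chosen after seeing the data. Of values that answer a comparison, 246 stayed near the main value and 14 moved. A count was near when equal, as 0 called against 0 called, or of similar size. A median was near when it shifted by less than the SD between arrays, 0.73 to 0.76 in comparisons with sham. Even the shift from 0.17 to -0.27 in 5-day G-CSF minus sham counted as near, so the 246 is a weak measure of stability. Leaving out 1 array gave 0 to 2 called members in POL5551 minus sham, with 2 (Acaca and Ebp) without sham mouse 3, where 14.1% of all genes were called, and 0 in the other 4 comparisons. The F test called 0 to 10 members, with 10 without sham mouse 1 (23.1% of all genes), 1 without sham mouse 2 (6.6%), and 2 (Stard4 and Idi1) when only probes well above background on all 12 arrays were tested (14%). With the off-tissue covariate the members' median minus that of all genes was -0.25 in POL5551 minus sham, -0.27 in 5-day G-CSF minus sham, -0.16 in 5-day minus 2-day G-CSF and -0.0026 in POL5551 minus 5-day G-CSF, against 0.92, 0.17, 0.55 and 0.70 without it. Normexp gave 0.36 in POL5551 minus 5-day G-CSF. Over arrays left out that value ran from 0.40 to 1.19 in POL5551 minus sham, -0.15 to 0.41 in 5-day and -0.71 to -0.03 in 2-day G-CSF minus sham, 0.42 to 0.77 in 5-day minus 2-day G-CSF and 0.45 to 0.82 in POL5551 minus 5-day G-CSF. Median scaling gave 15 members wholly higher in POL5551 minus sham (19.2% of all genes) and 13 in 5-day minus 2-day G-CSF (17.6%). Without sham mouse 1 the members wholly apart were 2 lower in POL5551 minus sham (27.3% of all genes) and 11 lower after 5 days of G-CSF (13.4%). After 2 days they were 19 lower (20.4%) and 1 higher (31%). With the covariate 22 members had the opposite sign in POL5551 minus sham and 15 in 5-day G-CSF minus sham. Of the members given with full statistics in a comparison, those of opposite sign there were Ebp in POL5551 minus sham (-0.32) and Scd2 in 5-day G-CSF minus sham (-0.21) with the covariate, and Hsd17b7 with the mean of its probes, at 0.14 after 5 days and 0.042 after 2 days. The cause was not tested. With the replicate block 0 members were called in every comparison, and genes called in 2-day G-CSF minus sham numbered 6, against 11 without it, and it changed no other call of a member.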
